A study of Mus musculus with 4 samples.

Results

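Laminin chains and the proteins that tie laminin into the basement membrane were followed across the stromal cells of the adult mouse small intestine. The 10 genes were taken by name as rows of the deposited expression table, 3 laminin alpha chains (Lama2, Lama4, Lama5), 2 beta chains (Lamb1, Lamb2), 2 gamma chains (Lamc1, Lamc3), both nidogens (Nid1, Nid2) and perlecan (Hspg2). They were 10 of the 18619 genes of the table and all 10 had reads. The series held 4 samples in 3 groups, named WT, LATS1/2 KO 1w and LATS1/2 KO 2w. All values here come from 1 library, that of group LATS1/2 KO 1w. Samples of WT and of LATS1/2 KO 2w were not analysed here, so no knockout was compared with a control. The cells came from adult C57BL/6J mice with floxed Lats1 and Lats2 alleles, a tamoxifen-inducible Cre (CreERT2) driven by Pdgfrb and a tdTomato reporter, taken 1 week after tamoxifen. Cells positive for tdTomato were sorted, so cells in which Pdgfrb does not drive the Cre were left out by the gate. The text of the study gives 2 mice per group for its integrated data, but not how mice were divided between libraries. The columns were marked M or F, a split by Xist, and Y-linked reads were present, so the library held cells of both sexes. No column names a mouse.

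A laminin is a trimer of 1 alpha, 1 beta and 1 gamma chain that cells secrete and assemble into a sheet on their surface, where integrins and dystroglycan bind it, mainly through the alpha chain. Nidogens bridge the laminin sheet and the collagen IV network, and perlecan, a heparan sulfate proteoglycan, joins both and holds growth factors. Lama2 encodes the alpha chain best known from muscle and peripheral nerve, Lama4 one typical of vessel walls and fat, and Lama5 one found under epithelia and in vessel walls. Lamb2 is the beta chain known from the neuromuscular synapse and the kidney filter, whereas Lamb1 and Lamc1 are the widespread partners of most laminins. In the gut, epithelium and stroma both feed the basement membranes of villi, vessels and muscle.

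The 10 genes lay at separate places of the genome (GENCODE M21, build mm10), and all were annotated as protein coding. Lama2 spanned chr10:26980036-27619758 on the minus strand, Lama4 chr10:38965515-39110188 on the plus strand and Lama5 chr2:180176373-180225859 on the minus strand. Lamb1 spanned chr12:31265234-31329644 and Lamb2 chr9:108479736-108490530, both on the plus strand. Lamc1 spanned chr1:153218922-153332786 on the minus strand and Lamc3 chr2:31887291-31946539 on the plus strand. Nid1 spanned chr13:13437551-13512269, Nid2 chr14:19751265-19811787 and Hspg2 chr4:137468769-137570630, all on the plus strand. Exons of Nid2 overlapped those of Rtraf on the opposite strand, and whether reads were counted by strand is not given in the sources used here. Rtraf ranged from 189 to 283 CPM, the unit of level defined with the library, across the 6 cell classes described next, and it did not share the order of Nid2 among them. Gm48682, antisense to Nid1, had at most 0.936 CPM in any class.

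RefSeq promoters (GRCm38.p6, 250 bases before to 50 after the start) were matched by symbol for 6 of the 10 genes, Lama2, Lama5, Lamb1, Lamb2, Nid1 and Hspg2. Those of Lama2 and Lama5 are shown because these alpha chains differed most between classes of cells, and that of Nid1 for its match to GGAATG, a long form of the letters bound by TEAD, the DNA-binding partner of YAP, which the Lats kinases restrain. Capitals mark matches, on either strand, to the GC box GGGCGG (the Sp-factor site), to the long TEAD form GGAATG and to the TATA box TATAAA. The Lama2 promoter was at chr10:27616893-27617192, minus strand, inside the GENCODE span of the gene, the Lama5 promoter at chr2:180225810-180226109, minus strand, and the Nid1 promoter at chr13:13437352-13437651, plus strand.
Lama2: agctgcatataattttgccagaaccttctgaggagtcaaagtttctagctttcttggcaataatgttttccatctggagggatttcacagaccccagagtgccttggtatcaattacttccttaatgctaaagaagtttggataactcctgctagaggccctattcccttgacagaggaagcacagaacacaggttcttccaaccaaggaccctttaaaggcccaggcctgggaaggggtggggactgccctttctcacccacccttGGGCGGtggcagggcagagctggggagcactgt
Lama5: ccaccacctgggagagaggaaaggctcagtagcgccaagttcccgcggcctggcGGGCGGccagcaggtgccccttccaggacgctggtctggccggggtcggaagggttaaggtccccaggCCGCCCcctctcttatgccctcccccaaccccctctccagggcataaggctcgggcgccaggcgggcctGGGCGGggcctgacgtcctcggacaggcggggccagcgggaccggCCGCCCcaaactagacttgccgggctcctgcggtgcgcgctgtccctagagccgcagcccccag
Nid1: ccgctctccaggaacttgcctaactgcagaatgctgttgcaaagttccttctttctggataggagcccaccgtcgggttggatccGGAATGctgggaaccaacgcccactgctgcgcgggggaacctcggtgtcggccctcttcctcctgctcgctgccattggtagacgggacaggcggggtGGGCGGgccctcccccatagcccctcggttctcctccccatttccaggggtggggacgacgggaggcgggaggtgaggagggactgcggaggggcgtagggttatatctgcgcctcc
The Lama5 promoter held 4 GC boxes and 72.7% G or C, the Lama2 promoter 1 GC box and 50.3% G or C, against a median of 52.7% over the 32851 promoters of the table. Among the others, Hspg2 held 5 GC boxes, Lamb1 2 and Lamb2 0. A GC box occurred in 35.7% of all promoters of this length, the long TEAD form in 14.7% and a TATA box in 13.6%. Nid1 held 1 long TEAD form and 1 GC box. The shorter consensus GGAAT, which the study used and which every long form contains, had 1 match, on either strand, in each of Nid1, Lama2 and Lamb1, and 0 in the other 3. It occurred in 38.7% of all promoters and is not capitalised on its own. No promoter of the 6 held a TATA box. These matches describe the letters of the windows and were not measured as binding.

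In all, 46054627 unique molecular identifiers (UMIs, each standing for a captured transcript end) were read from 4108 cells, at a median of 10726 per cell. Levels are given as CPM, the UMIs of a gene in a cluster per 1e+06 UMIs of that cluster, with the exact 95% Poisson interval in parentheses. Ratios of CPM carry exact 95% binomial intervals. These intervals cover counting error only, and with 1 library there was no replicate and no test. A gene counted as higher or lower in a class when its ratio was at least 2 or at most 0.5. The targeted genes were read in every cluster, Lats1 at 8.73 to 19.9 CPM and Lats2 at 30.9 to 82.1 CPM, and reads from transcript 3′ ends that may lie outside the deleted exons do not check the deletion.

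Clustering without the 10 genes gave 10 clusters. Clusters 1, 2, 4, 5 and 6 (3022 cells) reached none of the classes below and were pooled as villus clusters. They carried the villus fibroblast marker Adamdec1 at 4069 to 6487 CPM. Under the marker rule, which sets a cluster against the median of the others, they passed 1, 0, 1, 2 and 0 of 4 villus fibroblast markers. Cluster 3, described next, passed 3. Those 4 markers summed to 4218 to 6663 CPM in the villus clusters, 622 CPM in cluster 3 and 4371 CPM in cluster 8. Cluster 3 (691 cells) was FB4-like with all 4 of its markers, among them Ackr4 at 559.7 CPM. Cluster 7 (205 cells) was FB5-like with all 6 markers, led by Pdgfra at 1978 CPM, although Foxl1, on the same list, was at 12.4 CPM there and higher in clusters 8 (25.2 CPM), 10 (17.2 CPM) and 6 (15.2 CPM). Cluster 8 (76 cells) was smooth muscle cell (SMC)-like with all 6 markers, including Myh11 at 2232 CPM. It also held Adamdec1 at 4237 CPM, close to the 4730 CPM of the villus clusters, and the part of fibroblast RNA in its values was not tested. Cluster 10 (45 cells) was vFB3-like with all 5 markers, including Itga8 at 574 CPM. Cluster 9 (69 cells) passed all 8 mural cell (MC) markers, including Notch3 at 570.1 CPM. Those 8 summed to 4786 CPM there and to 906 CPM in cluster 5, the next highest. None of them stood among the 10 leading genes of cluster 9, whereas Ano1, an interstitial cell of Cajal marker, did. However, cluster 9 passed only 1 of 3 Cajal markers, and their sum was highest in cluster 7, at 226 CPM. Because of its leading genes, this cluster is called cluster 9. Its median depth was 6793 UMIs. Kcnj8 and Abcc9, ATP-sensitive potassium channel genes used on no list, were at 598 and 271 CPM in cluster 7 and 56.3 and 40.5 CPM in cluster 9. The endothelial marker Pecam1 had 0 UMIs in every cluster, and 25 cells had a UMI of Pecam1, Cdh5, Ptprc or Epcam. Clusters 2 and 6 also passed 3 of the 5 vFB3 markers, cluster 5 passed 3 of the 4 FB4 markers, and clusters 6 and 7 passed 3 of the 6 SMC markers. These classes may therefore not match those of the study.

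**Figure D1:**
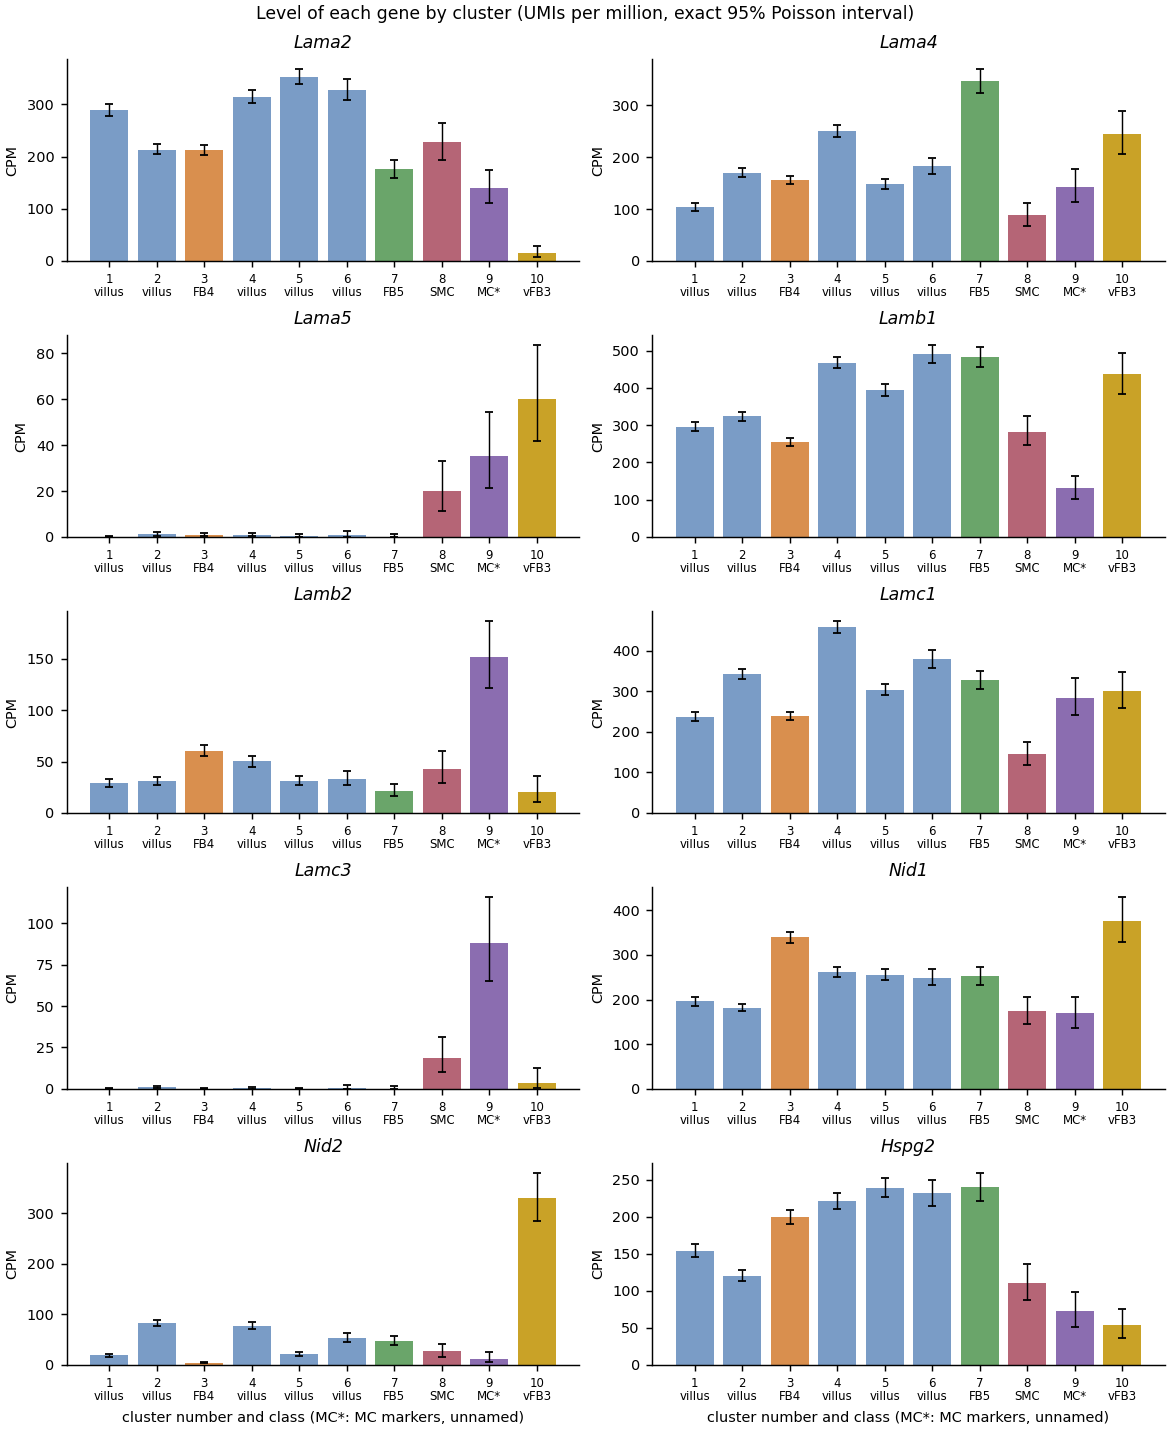
Level of each gene (CPM, linear axis from 0) in the 10 clusters, bars coloured by class, with exact 95% Poisson intervals. Lama5, Lamc3 and Nid2 each rise far above the rest in 1 to 3 small clusters, while Lama2 is at 15.5 CPM in cluster 10.

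Among the alpha chains, Lama2 was read throughout the fibroblast clusters and was lowest in the vFB3-like cluster. It measured 289 CPM in cluster 1, 214 in cluster 2, 315 in cluster 4, 353 in cluster 5 and 329 in cluster 6, with FB4-like cells at 212, FB5-like at 176, SMC-like at 227.2 and cluster 9 at 141 CPM. The vFB3-like cluster stood apart from all of them at 15.5 CPM (7.08 to 29.4), from 9 UMIs in 45 cells. The ratio to the villus clusters was 0.0534 (0.0244 to 0.101), and 0.0237 and 0.0830 in M and F columns alone. Free RNA can give UMIs to cells that lack a transcript, and its share was bounded at 8.64% of a gene's library level from Y-linked reads in cells with Xist. That bound was 22.7 CPM for Lama2, so the level in vFB3-like cells cannot be told from background. The neighbours in the order of levels, clusters 5 and 6, 6 and 4, 8 and 2, 2 and 3, and 7 and 9, did not differ beyond their counting intervals.

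Lama5 had the opposite pattern. It counted 97 UMIs in the library, of which 36.1% (26.6 to 46.5) came from the vFB3-like cluster with 1.26% of all UMIs, 20.6% from cluster 9 and 15.5% from the SMC-like cluster. Its level was 60.2 CPM (41.9 to 83.7) in vFB3-like cells, 35.2 CPM (21.5 to 54.3) in cluster 9 and 19.9 CPM (11.2 to 32.9) in SMC-like cells. In the other clusters it lay between 0 and 1.12 CPM, and cluster 1, with 0 UMIs, had an upper limit of 0.489 CPM. The 3 high clusters did not overlap with the others, but cluster 10 did not differ from 9, nor 9 from 8, beyond counting error. Relative to the villus clusters the ratio was 94.9 (53.7 to 172) in vFB3-like cells, from 35 against 21 UMIs, 55.5 (28.5 to 108) in cluster 9 and 31.4 (15.1 to 63.9) in SMC-like cells, which was 13.6 in cells with 8000 to 14000 UMIs. The ratio in cluster 9 was 83.3 at a mitochondrial limit of 5%. Lama5 itself stood among the 10 leading genes of the vFB3-like cluster although it was kept out of the clustering.

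Lama4 was present in every cluster and highest in FB5-like cells, at 346 CPM (323 to 370.0). Cluster 4 followed at 250.3 CPM and the vFB3-like cluster at 244 CPM, which did not differ from each other beyond counting error. The remaining clusters ran from 182 CPM in cluster 6 down to 87.7 CPM in SMC-like cells. The ratio of FB5-like to villus clusters was 2.03 (1.89 to 2.18), with 349 CPM in the columns marked M and 344 CPM in those marked F, a split of the cells by Xist. Being so close to 2, this call ended at a mitochondrial limit of 5% (ratio 1.99) and with the F columns alone (1.94).

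Of the beta chains, Lamb2 was highest and Lamb1 lowest in cluster 9. Lamb1 ranged from 256 CPM in FB4-like cells to 490.4 CPM in cluster 6, apart from cluster 9, which had 130.2 CPM (102 to 163). Lamb2 ranged from 20.6 CPM in vFB3-like cells to 60.2 CPM in FB4-like cells, and was at 151 CPM (121 to 187) in cluster 9. Cluster 9 did not overlap with any other cluster for either gene. Its ratio to the villus clusters was 4.31 (3.42 to 5.37) for Lamb2 and 0.344 (0.270 to 0.433) for Lamb1. FB4-like cells had the next highest Lamb2, 1.72 times the villus level (1.55 to 1.91), or 2.05 times in M columns.

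The gamma chain Lamc1 was read in all clusters, and Lamc3 was read in 7 of them and high in 2. Lamc1 ranged from 145 CPM in SMC-like cells to 459 CPM in cluster 4, and the ratio of SMC-like to villus clusters was 0.424 (0.348 to 0.512). Lamc3 counted 82 UMIs in the library, 61.0% (49.6 to 71.6) of them in cluster 9 and 17.1% in the SMC-like cluster. The level was 88.0 CPM (65.3 to 116) in cluster 9 and 18.6 CPM (10.2 to 31.2) in SMC-like cells, which did not overlap, and 0 to 3.44 CPM elsewhere. The ratio to the villus clusters, from 50 against 14 UMIs, was 208 (113 to 407) in cluster 9 and 44.0 (19.4 to 99.5) in SMC-like cells. These sizes moved with the cells used, the first to 376 at a mitochondrial limit of 5%, 373 with cells weighted equally and 326 with the free RNA bound subtracted, and the second to 29.2 in M columns and 68.8 in F columns.

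Cluster 9 mixed shallow and deep cells, and the fibroblast markers moved with depth. Its 21 cells under 5000 UMIs held 0 UMIs of Pdgfra and 70.9 CPM of Adamdec1, and its 48 deeper cells held 149 CPM and 583 CPM. Lamc3 was 189 CPM (108 to 307) in the shallow cells and 70.3 CPM (48.7 to 98.2) in the deep cells, and Lama5 was 70.9 CPM and 28.9 CPM. Lamb2 was 166 CPM and 149 CPM, so these 3 genes stood above the villus clusters in both sets. Hspg2 had 0 UMIs in the shallow cells and 84.8 CPM in the deep ones. The split was chosen after the data had been seen, and the part of fibroblast RNA in the deep cells was not tested.

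Of the nidogens, Nid2 set the vFB3-like and FB4-like classes apart from the villus clusters. Nid1 varied least of the 10 genes, 2.23-fold (1.75 to 2.87), from 169 CPM in cluster 9 to 377 CPM (328 to 430.0) in vFB3-like cells, with FB4-like cells next at 339 CPM (327 to 352), and these highest 2 did not differ beyond counting error. Nid2 varied 74.3-fold (52.2 to 108) between the same 2 classes. It was 330.2 CPM (285 to 380.4) in vFB3-like cells and 4.44 CPM (3.15 to 6.10) in FB4-like cells, from 192 and 38 UMIs. Between them lay cluster 2 at 83.2 CPM, cluster 4 at 77.5, cluster 6 at 53.4, FB5-like cells at 47.6, SMC-like cells at 26.6, cluster 5 at 21.03, cluster 1 at 19.1 and cluster 9 at 12.3 CPM. The free RNA bound for Nid2, 4.01 CPM, lay inside the interval of the FB4-like level, so that level cannot be told from background and the ratios to it may be larger. Relative to the villus clusters, Nid2 was 6.20 times higher in vFB3-like cells (5.32 to 7.20) and 0.0835 times as high in FB4-like cells (0.0589 to 0.115), or 0.00882 with the free RNA bound subtracted.

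Perlecan was lowest in the vFB3-like cluster and cluster 9. Hspg2 was between 120.3 and 239 CPM in the villus, FB4-like and FB5-like clusters and lower in cluster 9 and vFB3-like cells, with 110.3 CPM in SMC-like cells (47.8 in M and 138 in F columns, the latter inside that range), 72.1 in cluster 9 and 53.3 (36.2 to 75.7) in vFB3-like cells. The SMC-like cluster did not differ from cluster 2, the next above it, beyond counting error. The ratio to the villus clusters was 0.292 (0.198 to 0.415) in vFB3-like cells and 0.395 (0.283 to 0.537) in cluster 9. The ratio in vFB3-like cells was 0.143 in cells with 8000 to 14000 UMIs and 0.184 in M columns, and that in cluster 9 was 0.0367 at a mitochondrial limit of 5%. Over the 10 clusters the Pearson correlation of log2(CPM + 1) with Hspg2 was 0.78 for Lama2 and -0.90 for Lama5, and that of Lamb1 with Lamb2 was -0.82. These describe 10 clusters of 1 library that share its depth.

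**Figure D2:**
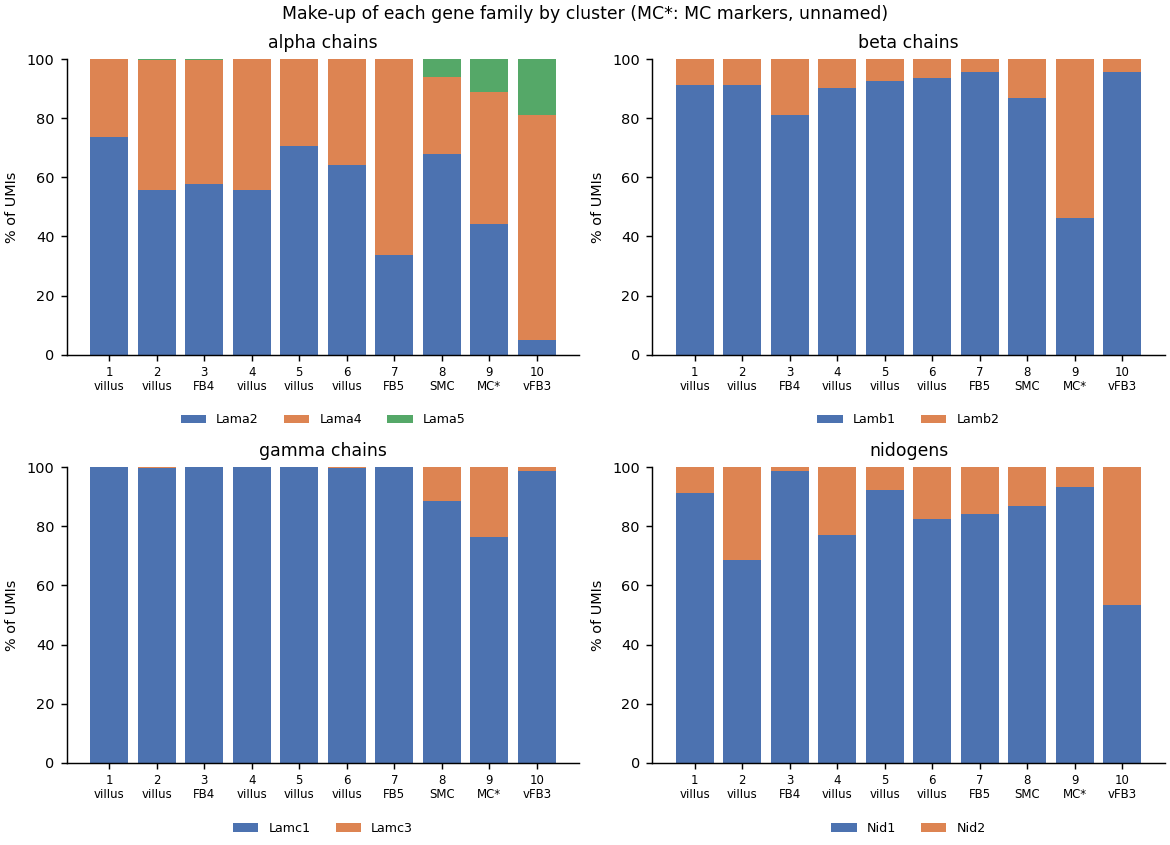
Share of the UMIs of each family (%, 0 to 100) by gene in the 10 clusters, for alpha chains, beta chains, gamma chains and nidogens, counting the 10 genes only, so that Lama1 is left out of the alpha chains. Lama5 takes 18.8% of these alpha-chain UMIs in cluster 10, Lamb2 takes 53.8% of beta-chain UMIs in cluster 9, and Nid2 takes 46.7% of nidogen UMIs in cluster 10.

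The make-up of each family restates these levels free of the total. Capture can differ between genes, so shares were compared between clusters only. In the villus clusters Lama2 gave 62.9% of the UMIs of the 3 alpha chains, Lama4 36.9% and Lama5 0.138%. In vFB3-like cells the shares were 4.84% (2.24 to 8.99), 76.3% (69.6 to 82.3) and 18.8% (13.5 to 25.2). Lama4 gave 66.3% in FB5-like cells. Lama1, which is not counted in these shares, had 31 UMIs in vFB3-like cells, where Lama5 had 35, and 581 UMIs in the villus clusters, where Lama5 had 21. Lamb2 gave 8.49% of beta-chain UMIs in the villus clusters, 19.1% in FB4-like cells and 53.8% in cluster 9. Lamc3 gave 23.6% of gamma-chain UMIs in cluster 9, 11.4% in SMC-like cells and 0.124% in the villus clusters. Nid2 gave 46.7% of nidogen UMIs in vFB3-like cells, 19.3% in the villus clusters and 1.29% in FB4-like cells.

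**Figure D3:**
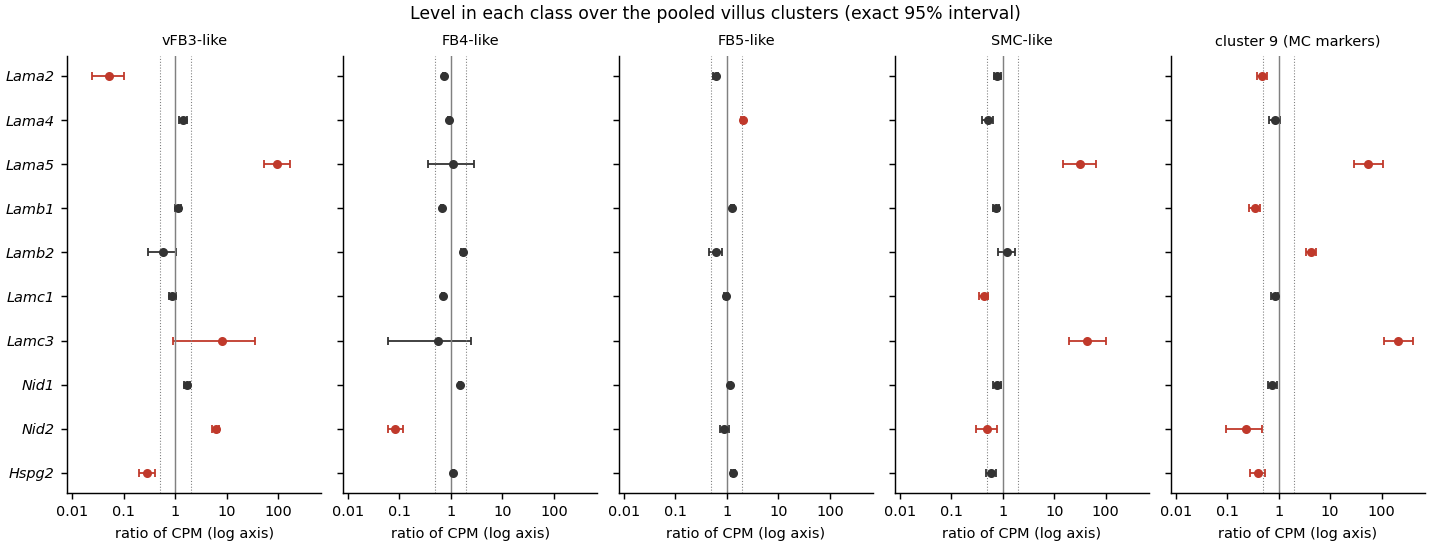
Ratio of CPM of each gene in each class over the pooled villus clusters (log axis, shared by the panels), with exact 95% intervals. Red points lie at or beyond 2-fold, shown by dotted lines, and Lama5 and Lamc3 are not drawn for FB5-like cells, where they had 0 UMIs.

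Against the background of all 12385 genes with at least 50 UMIs, the 10 genes were called as follows. In vFB3-like cells 3 of 10 were higher (Lama5, Nid2 and Lamc3) and 2 of 10 lower (Lama2 and Hspg2), where 9% of all genes were higher and 10.2% lower. The Lamc3 call there rested on 2 UMIs and its interval, 0.897 to 35.4, included 1. In FB4-like cells 0 were higher (4% of all genes) and Nid2 was lower (6.84%). In FB5-like cells Lama4 was higher (6.27%) and 0 were lower (11.3%), Lama5 and Lamc3 having 0 UMIs in 205 cells. In SMC-like cells Lama5 and Lamc3 were higher (7.71%), and Lamc1 and Nid2 were lower (9.61%), Nid2 at a ratio of 0.499 (0.304 to 0.773) that was 0.851 in cells with 8000 to 14000 UMIs and 0.592 in F columns. Which genes were lower there changed with the cells used, since in M columns Lamc1 was at 0.538 and Lama4 and Hspg2 at 0.429 and 0.242. In cluster 9 the genes Lamc3, Lama5 and Lamb2 were higher (10.8%), and Nid2, Lamb1, Hspg2 and Lama2 were lower (10.4%). The Lama2 call ended in M columns at 0.546, at a mitochondrial limit of 5% at 0.524, without likely doublets at 0.522 and in the cells under 5000 UMIs at 0.612. The median log2 ratio over the 10 genes was 0.36 in vFB3-like cells against 0.17 over all genes, -0.29 against -0.12 in FB4-like cells, -0.39 against 0.05 in SMC-like cells and -0.33 against 0.07 in cluster 9. In FB5-like cells it was 0.06 over the 8 genes with UMIs and 0.26 with the other 2 at their upper bounds, against 0.0029 over all genes. All 10 genes together gave 73.6% of their UMIs in the villus clusters, which held 71.9% of all UMIs.

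Other basement membrane genes were followed on a list of 29, of which 25 had at least 50 UMIs. In vFB3-like cells 5 were higher and 7 lower, where 9% and 10.2% of all genes were, the highest ratios being those of Tinagl1, a matrix protein related to tubulointerstitial nephritis antigen, at 41.1 (26.5 to 63.2), Col18a1, which encodes the precursor of endostatin, at 4.22 (3.82 to 4.65) and Lama1, the embryonic-type alpha chain, at 3.04 (2.05 to 4.36). The lowest were Smoc2 at 0.0500 (0.0136 to 0.128), Col15a1 at 0.0511 (0.0221 to 0.101) and the laminin-binding fibulin Fbln2 at 0.0581 (0.0213 to 0.127). Levels of Lama1 were 53.3 CPM in vFB3-like cells and 17.6 CPM in the villus clusters. In FB4-like cells, where 4% of all genes were higher and 6.84% lower, 7 of the list were higher, led by the collagen IV chains Col4a5 at 10.8 (8.01 to 14.7) and Col4a6 at 10.2 (4.32 to 26.5), and 6 were lower, led by Lama1 at 0.0400 and hemicentin (Hmcn1) at 0.141. Lama1 was at 0.702 CPM there, under its free RNA bound of 1.18 CPM, so that level cannot be told from background.

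In FB5-like cells 4 of the list were higher and 12 lower (6.27% and 11.3% of all genes), with Col4a6 at 185 (90.9 to 440.1) and Col4a5 at 105 (80.6 to 139.8) at the top, where Col4a5 reached 194 CPM against 1.84 CPM in the villus clusters. These collagen IV chains occur together in 1 network, known from smooth muscle among other tissues, but the SMC-like cluster had 2 UMIs of Col4a5 and 0 of Col4a6. Cluster 9 had 61.6 CPM of Col4a5 and 21.1 CPM of Col4a6, 33.4 (21.4 to 51.5) and 87.4 (32.8 to 246) times the villus level. In SMC-like cells 3 were higher and 8 lower (7.71% and 9.61% of all genes), with nephronectin (Npnt), a ligand of integrin alpha-8 and one of the genes that lead this cluster, at 581 CPM and a ratio of 243 (191 to 313). In cluster 9 the counts were 8 higher and 6 lower (10.8% and 10.4% of all genes), led by Tinagl1 at 792 CPM and a ratio of 485 (365 to 656). A further list held 17 genes of integrins, Bcam, dystroglycan and its complex, not all of which bind laminin, and 16 had at least 50 UMIs. In cluster 9, with those same shares of all genes called, 7 were higher and 2 lower. Integrin alpha-7 (Itga7), a laminin receptor of muscle, was there at 79.2 CPM and 65.5 times the villus level (41.8 to 103), and Bcam, a receptor for the laminin alpha-5 chain, at 213 CPM and 61.8 times (47.5 to 80.6). In vFB3-like cells 3 were higher and 1 lower, the highest being Itga9 at 7.37 (5.80 to 9.26). In SMC-like cells 5 were higher, including dystrophin (Dmd) at 4.47 (3.79 to 5.25), and 1 lower. FB5-like cells had 2 higher and 3 lower, and FB4-like cells 0 and 3. The lists were chosen with earlier results of these data known, and nothing is read from these counts about either list.

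**Figure D4:**
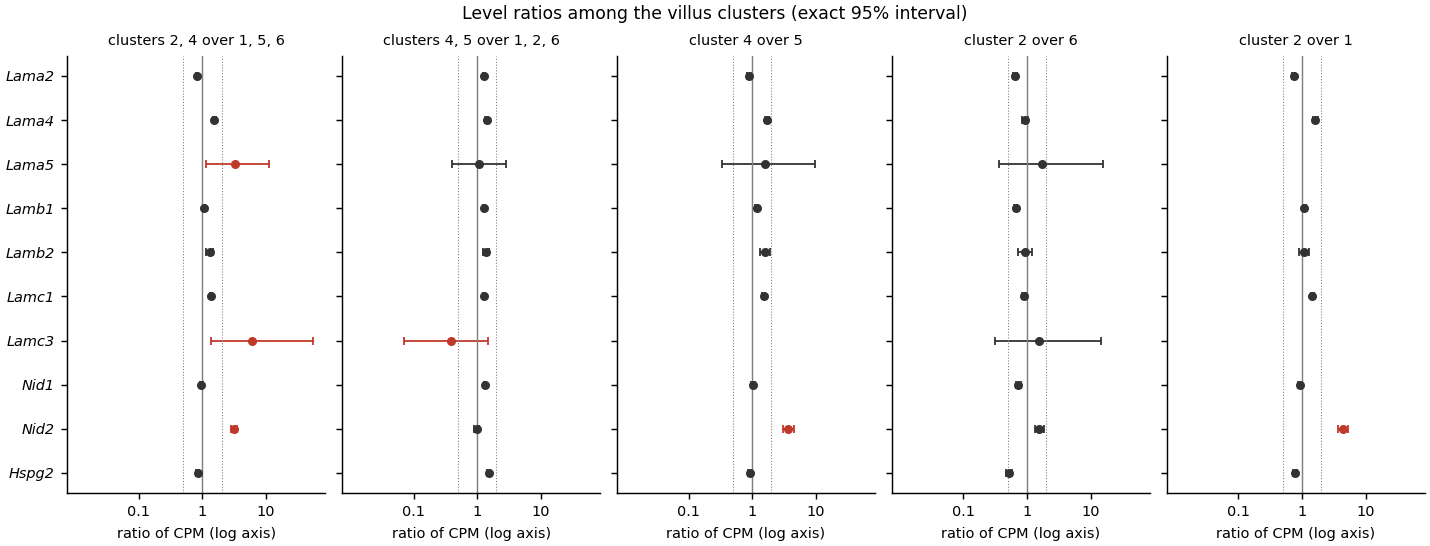
Ratio of CPM of each gene between groups of villus clusters (log axis, shared by the panels), with exact 95% intervals and dotted lines at 2-fold. Nid2 is at 3.10 for clusters 2 and 4 over 1, 5 and 6 and near 1 for the immediate-early grouping, and Lamc3 and Lama5 are not drawn where 1 side had 0 UMIs.

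Within the villus clusters, Nid2 was highest in clusters 2 and 4, those with the most targets of YAP and TAZ above the median, but cluster 6, with 1 such target, was not far below. YAP and TAZ are the coactivators that the Lats kinases hold in check. Clusters 2 and 4 were above the villus median in 4 and 5 of 7 target genes and were set against clusters 1, 5 and 6, a rule set after the levels had been seen. The ratio of these groups was 3.72 for Amotl2, 3.76 for Ajuba, 2.18 for Cyr61, 2.39 for Ctgf and 5.42 for Vegfc, while Axl went the other way at 0.682 (0.649 to 0.718) and Ankrd1 had 0 UMIs. The targets did not all separate the clusters, since Cyr61 was 172 CPM in cluster 2 and 386 in target-low cluster 5, and Cyr61 and Ctgf in cluster 2 were 1.10 and 1.13 times their levels in cluster 6. Nid2 was 80.6 CPM in the target-high clusters and 26.0 CPM in the others, a ratio of 3.10 (2.78 to 3.46). Of the target-low clusters, cluster 6 had 53.4 CPM of Nid2 and clusters 1 and 5 had 19.1 and 21.03 CPM. Lama4 was at 1.54 (1.46 to 1.63) and Lamc1 at 1.38 (1.33 to 1.43), both short of 2-fold, whereas Lama2 was at 0.813 and Hspg2 at 0.836. With Lamc3 at 6.04 (1.34 to 55.5) from 12 against 2 UMIs and Lama5 at 3.22 (1.13 to 11.2) from 16 against 5, 3 of 10 genes were higher, where 2.79% of all genes were, and 0 lower, where 3.61% were. The Lama5 ratio was 1.36 at a mitochondrial limit of 5%, and the Lamc3 ratio 1.27 with the F columns alone. The median log2 ratio was 0.42 over the 10 genes and -0.04 over all genes. Of the other basement membrane genes 4 were higher and 3 lower, and of the list of integrins, Bcam and the dystroglycan complex 2 were higher and 0 lower.

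Immediate-early genes, which dissociation of tissue can induce, also differed among these clusters, so clusters on the same side of that grouping were also set side by side, although their sums still differed. Clusters 4 and 5 were high, at 5881 and 9304 CPM summed over 7 genes, and clusters 1, 2 and 6 low, at 2193, 505 and 1084 CPM. Between the high clusters, Nid2 was 3.68 times higher in cluster 4 than in cluster 5 (3.04 to 4.50), and 1 of 10 genes was higher, where 3.49% of all genes were, and 0 lower, where 3.53% were. Among the low clusters, Nid2 was 4.36 times higher in cluster 2 than in cluster 1 (3.64 to 5.25) and 1.56 times higher than in cluster 6 (1.31 to 1.86). For cluster 2 over cluster 1, 3 of 10 genes were higher (3.94% of all genes) and 0 lower (5.87%), with Lama5 and Lamc3 called from 10 and 9 UMIs against 0. For cluster 2 over cluster 6, 0 were higher (3.92%) and 0 lower (8.05%). Lama4 was 1.70 times higher in cluster 4 than 5 (1.57 to 1.84) and 1.63 times higher in cluster 2 than 1 (1.49 to 1.78), but 0.930 times as high in cluster 2 as in 6 (0.843 to 1.03). That last value joined 171 against 154 CPM in M columns and 169 against 235 CPM in F columns, in opposite directions, and 34.5% of cluster 2 and 69.3% of cluster 6 were marked M. Lamc1 had the same order, at 1.51, 1.45 and 0.907. The immediate-early sum was lower in cluster 2 than in cluster 1 and lower in cluster 4 than in cluster 5, so its part in these ratios was not tested. Hspg2, Lama2, Lamb1 and Nid1 were lower in cluster 2 than in cluster 6, at 0.519 (0.471 to 0.572), 0.650 (0.602 to 0.703), 0.660 (0.620 to 0.704) and 0.731 (0.670 to 0.798).

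Grouped by immediate-early level alone, Nid2 was at 0.976 (0.886 to 1.07) and Hspg2 at 1.52 (1.44 to 1.60), and Lama2, Lama4, Lamb1, Lamb2, Lamc1 and Nid1 were at 1.27 to 1.40. None of the 10 was higher by 2-fold, where 3.14% of all genes were. Lamc3 was lower, at 0.391 (0.0700 to 1.48) from 3 against 11 UMIs, an interval that includes 1, where 1.41% of all genes were lower, and its ratio was 2.55 with the F columns alone. Of the other basement membrane genes 4 were higher, the collagen IV chains Col4a4 at 7.86 (5.51 to 11.5), Col4a3 at 3.71 (2.69 to 5.18), Col4a6 from 6 against 2 UMIs with an interval, 0.768 to 43.5, that includes 1, and, named after its value was seen, Col4a5 at 2.54 (1.47 to 4.50). None was lower. In the FB4-like cells, a finer clustering gave subclusters of 187 and 502 cells, of which the smaller had more Amotl2. In that subcluster Lama2 was 131 CPM against 247 CPM, a ratio of 0.531 (0.470 to 0.599), and Nid1 was 411 CPM against 308 CPM, a ratio of 1.33 (1.23 to 1.44). Nid2 was 5.98 against 3.82 CPM there, and its ratio of 1.56 (0.758 to 3.13) did not differ from 1 beyond counting error. None of the 10 passed 2-fold, where 4.08% of all genes were higher and 5.6% lower.

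Some classes and clusters were also compared with each other directly, without the pooled villus clusters. In vFB3-like over FB4-like cells, Lama5, Nid2 and Lamc3 were higher (15.4% of all genes), Lamc3 from 2 against 2 UMIs, and Lama2, Hspg2 and Lamb2 were lower (11.3%), Lamb2 at 0.343 (0.176 to 0.604). Over cluster 2, which shares some of its markers, 4 were higher (11.3%) in vFB3-like cells, Lama5 at 53.8 (26.1 to 122), Nid2 at 3.97 (3.37 to 4.66), Nid1 at 2.07 (1.79 to 2.39) and Lamc3 with an interval that included 1, and 2 were lower (8.11%), Lama2 and Hspg2. Over cluster 6, 3 were higher (8.88%), Lama5 at 90.8 (23.3 to 779), Nid2 at 6.19 (4.99 to 7.68) and Lamc3. That Lamc3 call came from 2 against 2 UMIs, with an interval of 0.376 to 71.6 that includes 1. Of the 2 lower (11.2%), Lama2 and Hspg2, the latter was at 0.230 (0.155 to 0.330). In FB4-like over FB5-like cells, Lamb2 was higher at 2.79 (12.1%), and Nid2 at 0.0933 and Lama4 at 0.449 were lower (11.9%). In cluster 9 over SMC-like cells, Lamc3 was higher at 4.73 (2.57 to 9.27) and Lamb2 at 3.56 (2.35 to 5.52) (12.3%), and Lamb1 at 0.460 (0.348 to 0.602) and Nid2 at 0.464 (0.166 to 1.14) were lower (11%). Within the villus clusters, cluster 4 over cluster 2 had 0 higher (4.86%) and 1 lower (1.75%), Lamc3 from 3 against 9 UMIs with an interval that includes 1, and cluster 4 over cluster 1 had Nid2 at 4.06 and Lama4 at 2.41 higher (5.41%) and 0 lower (3.63%).

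**Figure D5:**
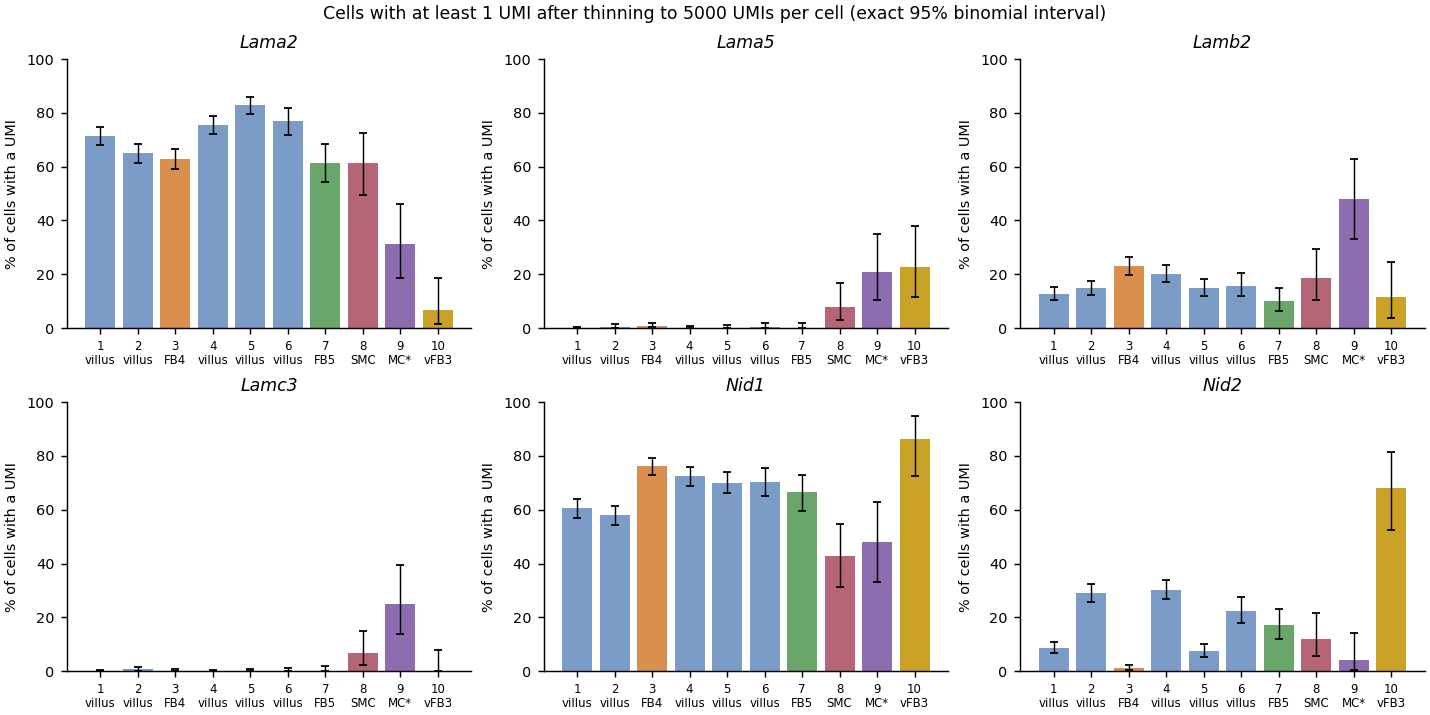
Share of cells (%) with at least 1 UMI of 6 of the genes in each cluster, after thinning every cell to 5000 UMIs, with exact 95% binomial intervals. Nid2 is seen in 68.2% of cells of cluster 10 and 1.03% of cluster 3, and Lama2 in 6.82% of cells of cluster 10.

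For each gene named next, shares of cells with a UMI had the same order as the levels at equal depth among the classes printed. The order did not hold throughout the single clusters, since Nid2 was seen in 30.2% of cluster 4 and 29.0% of cluster 2. UMIs were drawn down to 5000 in every cell, and 94 cells with fewer, including 21 of cluster 9, were dropped. Nid2 was then seen in 68.2% (52.4 to 81.4) of vFB3-like cells, 19.5% of villus cells and 1.03% (0.415 to 2.11) of FB4-like cells, and unthinned in 91.1%, 34.1% and 3.47%. Lama2 was seen in 6.82% (1.43 to 18.7) of vFB3-like cells and 73.5% of villus cells, unthinned in 15.6% and 91.6%. Lama5 was seen in 22.7% of vFB3-like cells, 20.8% of cluster 9, 8% of SMC-like cells and 0.236% of villus cells, unthinned in 35.6%, 26.1%, 17.1% and 0.695%. Lamc3 was seen in 25% of cluster 9 and 0.169% of villus cells, and Lamb2 in 47.9% and 15.6%. In the FB5-like cluster 0 of 205 cells held Lama5 or Lamc3, and 3 counts there would be 1.20 CPM. Both nidogens were seen together in 61.4% of thinned vFB3-like cells, 22.2% of cluster 4, 17.7% of cluster 2 and 0.882% of FB4-like cells. Median depths were 12888 UMIs in vFB3-like cells, 12080 in FB4-like cells and 6793 in cluster 9.

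For each gene the 3 genes of most similar log2 level over the 10 clusters were found among 8191 genes with at least 500 UMIs. For Nid2 they were Tmem123, Mnat1 and Lipa (Pearson r of 0.97, 0.97 and 0.96), all highest in the vFB3-like cluster. For Lama5 they were Pdzd8, 4921524J17Rik and Mpp5 (0.96, 0.96 and 0.94), for Lamc3 Rasal2, Plekha3 and Ppp1cb (0.97, 0.96 and 0.95), the last 3 highest in cluster 9. For Lama2 they were Mapk8ip1, Tmtc2 and Scai (0.98, 0.97 and 0.97), each lowest in the vFB3-like cluster. With 10 points from 1 library and so many genes, such values arise easily and are given as a description.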

How the data were processed

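Single cells sorted for tdTomato were captured with the 10x Chromium 3′ v3 kit. Per the methods and the submitters' processing notes, the authors aligned reads to mm10 with Cell Ranger 3.0.2 and processed them in Seurat (3.0.1 in the notes), keeping cells with 1000 to 6000 genes and at most 7% mitochondrial UMIs and genes in at least 3 cells, and removing immune and endothelial cells. The authors deposited, for each gene and cell, ln(1 + UMIs per 10000), a natural log. UMI counts were read back exactly (100.00% of 13789523 nonzero values whole within 0.001) and used where raw counts had been assumed. All 4108 cells met the filter, at 1965 to 35727 UMIs each, and 0 columns were left unmapped. The 1983 columns marked M and 2125 marked F split 1 library by Xist, shared 0 barcodes and were not treated as samples.

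Cells were clustered in Seurat 5.3.0 (R 4.3.3) from 30 principal components of 2000 variable genes at resolution 0.5, after regression on depth and mitochondrial share, leaving the 10 genes, both gene lists, the YAP/TAZ targets and sex-linked genes out of the variable genes. A marker counted in a cluster at 10% of cells and 2 times the median of the other clusters, and a class needed at least 4. Clusters that reached no class were pooled as the villus clusters. Pooled levels and their intervals were computed in Python 3.11.15 with scipy 1.17.1, and the ratio script was tested on simulated data. There was no test, as cells of 1 library are not replicates, and counts of 0 were set to a floor of 3 counts as a bound. The authors excluded doublets at sorting. Scrublet called 9 cells (0.219%), and whether it missed doublets was not tested. Xist and a Y-linked UMI occurred together in 116 cells. These and the 4% of cells with the highest Scrublet scores were left out in an alternative only. The named genes were the 10 members in every class, up to 3 highest and 3 lowest list genes with at least 100 UMIs per comparison, and the 3 most similar genes of each member. Markers, Rtraf, Gm48682 and genes of the cell checks were named for identity. The members and lists were chosen with earlier results of these data known, and the pairs of clusters and the split of cluster 9 after levels were seen. The closing section gives 15 alternatives and 2 added ones.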

Additional observations from a re-analysis of the deposited data

How the results depend on the processing

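No paired analysis was possible because 1 library was analysed and no result came from a test. Of 899 ratios of single genes recomputed under alternatives, 875 kept their direction and 61 moved by over 1.5 times. Counts of genes at least 2-fold apart stayed within 1.5 times of those reported in vFB3-like cells, SMC-like cells, cluster 9 and the YAP/TAZ grouping under every alternative that could be run, but which genes were called changed in each. Lamb2 in vFB3-like cells, 0.589, was 0.247 in cells with 8000 to 14000 UMIs, and the YAP/TAZ calls of Lama5 and Lamc3 ended at 1.36 (mitochondrial limit of 5%) and 1.27 (F columns). Lama4 in SMC-like cells, 0.515, was 0.349 to 0.467 under 5 alternatives. The count in FB4-like cells, 1, was 2 with M columns only, where Lamb2 was higher at 2.05, and with a mitochondrial limit of 5%, without likely doublets and with the free RNA bound subtracted, where Lamc3, otherwise at 0.553 on 2 UMIs, was lower at 0.283 to 0.301. The count in FB5-like cells, 1, was 0 with a mitochondrial limit of 5% and with F columns only, 2 in cells with 8000 to 14000 UMIs and 3 with the free RNA bound subtracted. The immediate-early count, 1, was 2 with a mitochondrial limit of 5%. The Lamc3 ratio of that grouping, 0.391, turned to 2.55 with F columns only, and the cause was not tested. The villus share of all UMIs of the 10 genes, 73.6%, was 73.1% with nothing regressed out, 74.3% and 73.0% in M and F columns and 79.4% in cells with 8000 to 14000 UMIs. The share of villus cells with a UMI, as the median over the 10 genes, was 53.3%. It was 27.5% when thinned to 2000 UMIs and 75.7% with no thinning. Nid2 in FB4-like cells, 0.0835 times the villus level, was 0.0543 without likely doublets, 0.0396 in cells with 8000 to 14000 UMIs and 0.00882 with the free RNA bound subtracted. Nid2 in SMC-like cells was 0.851 in cells with 8000 to 14000 UMIs and 0.184 with M columns only. Hspg2 in cluster 9 was 0.0367 at a mitochondrial limit of 5%. The MC-marker cluster was also split at 5000 UMIs, chosen after seeing the data, and its count was 7 in both sets, but in the cells under 5000 UMIs Lama2, at 0.612, was no longer called and Nid1, at 0.425, was. Not run for lack of cells were the immediate-early grouping at resolution 0.3, SMC-like cells at a mitochondrial limit of 5% and cluster 9 (8 cells) at 8000 to 14000 UMIs. Leaving out a replicate was not possible with 1 library. Lama5 and Lamc3, with 97 and 82 UMIs in all, set the limit of depth.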

Other observations

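Some of these genes were seen together in single cells after thinning to 5000 UMIs. Of the 48 thinned cells of cluster 9, 8 held both Lamb2 and Lamc3, 8 held both Lama4 and Lama5 and 3 held both Lama5 and Lamc3. Of the 44 thinned vFB3-like cells, 6 held both Lama4 and Lama5 and 1 held both Lama2 and Lama4.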
